A study of Mus musculus with 2 samples.

Results

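The genes described are 8 members of the integrated stress response, the ATF4 pathway, followed in islet endocrine cells with and without the LIM-homeodomain factor Isl1. They are Atf4, Atf5, Ddit3, Trib3, Asns, Chac1, Sesn2 and Ppp1r15a, taken by gene symbol from the 46984 features of the deposited matrices, and all 8 were found. Single-cell 3′ RNA was measured in 2 libraries of pancreatic endocrine cells from mice aged 1 month. Isl1CKO mice were Neurod1 Cre/+; Isl1 f/f, and control mice were Neurod1 Cre/+; Isl1 f/+, which the submitters describe as free of a phenotype. Each library pooled 3 animals of its genotype and was sorted for tdTomato. Both genotypes thus carried Cre driven from Neurod1, a gene of the endocrine lineage, at least 1 floxed Isl1 allele and the tdTomato reporter, and both were dissociated with actinomycin D, which blocks new transcription. With 1 library per genotype no difference has a replicate check, no test between genotypes was made, and every interval is a 95% interval of counting error only.

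In the integrated stress response, kinases that sense misfolded protein in the endoplasmic reticulum, amino acid shortage, haem deficit or double-stranded RNA phosphorylate the translation factor eIF2. General protein synthesis then slows, while the messenger RNA of the transcription factor ATF4 is translated more, so ATF4 activity is set largely at the protein level, which RNA counts do not measure. ATF4 with its partners induces genes of amino acid supply, redox balance and feedback on eIF2, and beta cells, with their heavy load of proinsulin synthesis, are known to depend on this control.

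After filtering, 7740 Isl1CKO and 3945 control endocrine cells remained, with medians of 8003 and 8856 UMIs (unique molecular identifiers, which count captured RNA molecules) and 1.52% and 0.629% mitochondrial UMIs per cell. Chga, the granule protein of endocrine cells, had a UMI in 100% of Isl1CKO and 99.7% of control cells. With 5073741 and 397107 Chga UMIs in all, a single one can come from outside the cell, so this share does not check the endocrine label. Neurod1 had a UMI in 85.3% of Isl1CKO and 75.1% of control cells, and Pax6, an endocrine factor gene, in 87.6% and 70.7%. Hormone genes took 3.82% of UMIs in Isl1CKO and 42.4% in control cells. Isl1 had a UMI in 84.1% of Isl1CKO and 84.6% of control cells, and since the floxed exons are not given in the sources used here, this 3′ count checks nothing. The Isl1CKO library is labelled as female and male and the control library as males. Cells with Xist and no Y-linked UMI (called female) numbered 5094 in Isl1CKO (65.8%) and 909 in control (23.0%), against its label, and cells with Y-linked UMIs and no Xist (called male) 1636 (21.1%) and 1635 (41.4%). The libraries therefore differ in sex as well as genotype, and each result below is given within the sexes where it changes. Summed other-cell markers, in CPM (a gene's UMIs per 1000000 UMIs of the cells, TMM-scaled), were 104 and 96.7 for acinar, 67.1 and 153 for immune, 0.20 and 3.67 for stromal and 4.56 and 13.9 for Schwann cell genes in Isl1CKO and control cells, and their part in the results was not tested. The immune sum was almost all C1qa (64.4 and 149), while Ptprc, the pan-leukocyte marker, was at 0.13 in Isl1CKO and 0 in control cells. Filtered cells of both libraries shared 8 barcodes.

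All 8 members are protein-coding genes, and their positions are those of GENCODE vM21 on GRCm38. The transcription factor gene Atf4 lies at chr15:80255184-80257541 on the plus strand, and Atf5, which encodes a related factor, at chr7:44812256-44816658 on the minus strand. Ddit3, the gene of the factor CHOP that is linked to cell death under lasting stress, lies at chr10:127290774-127296288 (plus). Trib3 at chr2:152337422-152344032 (minus) encodes a pseudokinase that binds ATF4 and restrains it. Asns at chr6:7675169-7693254 (minus) encodes asparagine synthetase, and Chac1 at chr2:119351229-119354381 (plus) an enzyme that breaks down glutathione. Sesn2 at chr4:132492032-132510501 (minus) encodes sestrin 2, which senses leucine and restrains the growth kinase mTORC1. Ppp1r15a at chr7:45522916-45526268 (minus) encodes GADD34, which brings a phosphatase to eIF2 and so closes the feedback loop. Atf5 overlaps Nup62 and Il4i1, Ddit3 overlaps Gm4189 and Mars, and Ppp1r15a overlaps Tulp2, each on the other strand. Sesn2 overlaps Gm12981 on its own strand. Ddit3 also overlaps, on its own strand, another protein-coding annotation named Ddit3 (chr10:127290829-127293753), which is not among the deposited features. How reads shared by such pairs were assigned is not given in the sources used here, so those counts are uncertain to that extent.

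The promoters shown are those of the feedback gene Ppp1r15a, which over all endocrine cells differed most between the libraries among members above 5 CPM, and of Atf5, Asns and Chac1, which were called lower in insulin cells. For Atf5 the table holds a pair of starts, and the one at the start of the annotated gene is shown. Each is the 250 bases before the start of transcription in the RefSeq promoter table for GRCm38.p6, written 5′ to 3′ on the gene's strand. Capitals mark the C/EBP-ATF response element, searched as TGATGNAA on both strands, in Asns and Chac1, and the cAMP response element TGACGTCA in Ppp1r15a.
Ppp1r15a: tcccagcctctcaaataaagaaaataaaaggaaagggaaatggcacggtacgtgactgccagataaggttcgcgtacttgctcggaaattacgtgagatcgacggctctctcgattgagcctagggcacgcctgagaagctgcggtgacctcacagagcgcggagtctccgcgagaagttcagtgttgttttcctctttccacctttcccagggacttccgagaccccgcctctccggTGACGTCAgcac
Atf5: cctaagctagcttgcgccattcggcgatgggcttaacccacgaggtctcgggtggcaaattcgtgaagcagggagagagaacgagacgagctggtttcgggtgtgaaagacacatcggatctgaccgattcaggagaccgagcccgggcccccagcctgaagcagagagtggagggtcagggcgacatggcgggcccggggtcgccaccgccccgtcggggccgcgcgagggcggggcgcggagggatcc
Asns: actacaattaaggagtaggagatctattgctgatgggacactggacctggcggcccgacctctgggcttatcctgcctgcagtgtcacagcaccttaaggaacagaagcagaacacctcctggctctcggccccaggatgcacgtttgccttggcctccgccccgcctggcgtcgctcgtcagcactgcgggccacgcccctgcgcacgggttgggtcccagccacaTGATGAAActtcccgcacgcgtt
Chac1: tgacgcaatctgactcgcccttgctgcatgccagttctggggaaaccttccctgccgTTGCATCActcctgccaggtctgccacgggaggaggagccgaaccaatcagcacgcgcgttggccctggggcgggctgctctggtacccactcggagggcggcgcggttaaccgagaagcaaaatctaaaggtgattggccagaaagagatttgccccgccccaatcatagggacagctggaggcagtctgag
The windows are chr7:45526269-45526518 (minus strand) for Ppp1r15a, chr7:44816659-44816908 (minus) for Atf5, chr6:7693210-7693459 (minus) for Asns and chr2:119350992-119351241 (plus) for Chac1. The response element began 23 bases before the start in Asns and 193 before it in Chac1. In Chac1 it lies on the opposite strand, so the gene's own strand, as printed, reads TTGCATCA. In Trib3 it lay 15 bases after the start, also on the opposite strand, where the gene's own strand reads TTACATCA. In all, 3 of 8 members held it in the 300-base window from 250 before to 50 after the start, as did 1304 of 32851 promoters (3.97%). The cAMP element stood 12 bases before the start of Ppp1r15a, and 588 of all windows held it (1.79%). These matches describe letters only, and 5 members held no response element in this window.

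Over all endocrine cells the members did not move as a set. Levels are CPM over the summed UMIs of the cells, and differences are log2 ratios of Isl1CKO over control. A gene counted as measured if either library reached 5 CPM, and as called at a 2-fold or larger difference with an interval that leaves out 1. Of the 6 members measured, 0 were called, beside 12.6% of 9909 genes (6.49% higher, 6.14% lower), and their median log2 ratio was 0.06, beside 0.05 over all measured genes.

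Ppp1r15a came nearest to the 2-fold limit, with 44.2 CPM in Isl1CKO and 23.6 in control cells (4589 and 939 UMIs), a log2 ratio of 0.91 (0.80 to 1.01) that exceeded 92.0% of measured genes. Atf4 itself had 56.7 in Isl1CKO and 46.5 in control cells, with a log2 ratio of 0.29 (0.21 to 0.36). Atf5 lay the other way, at 7.38 in Isl1CKO and 11.7 in control cells, with a log2 ratio of -0.67 (-0.83 to -0.50). The 3 genes thus differed from each other by more than counting error, each short of 2-fold.

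Among the other factor and effector genes the differences were small. Ddit3 had 13.3 CPM in Isl1CKO and 15.5 in control cells (log2 ratio -0.22, -0.36 to -0.08). Sesn2 had 25.0 in Isl1CKO and 21.3 in control cells (0.23, 0.12 to 0.35), and Asns 24.5 in Isl1CKO and 26.3 in control cells (-0.10, -0.21 to 0.00). Without TMM scaling all log2 ratios over endocrine cells shift by 0.54, so that Ddit3 (0.31) and Asns (0.43) turned positive and Atf5 stood at -0.13.

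The remaining members, Trib3 and Chac1, were below 5 CPM in both libraries. Trib3, which restrains ATF4, had 239 UMIs in Isl1CKO cells, or 2.30 CPM, and 9 UMIs in control cells, or 0.23 CPM, a ratio of 9.20 (5.28 to 22.5) with a log2 value of 3.20. That ratio was above 99.5% of measured genes, though the level rule kept Trib3 from being called. In free RNA, the barcodes with 1 to 50 UMIs, Trib3 had 2.63 CPM in the Isl1CKO library and 0 in the control library, and Ppp1r15a had 33.9 and 16.3. Free RNA thus held the same direction for both genes. Chac1 had 245 UMIs in Isl1CKO cells and 58 in control cells, at 2.36 and 1.46 CPM, with a log2 ratio of 0.68 (0.28 to 1.13).

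**Figure D1:**
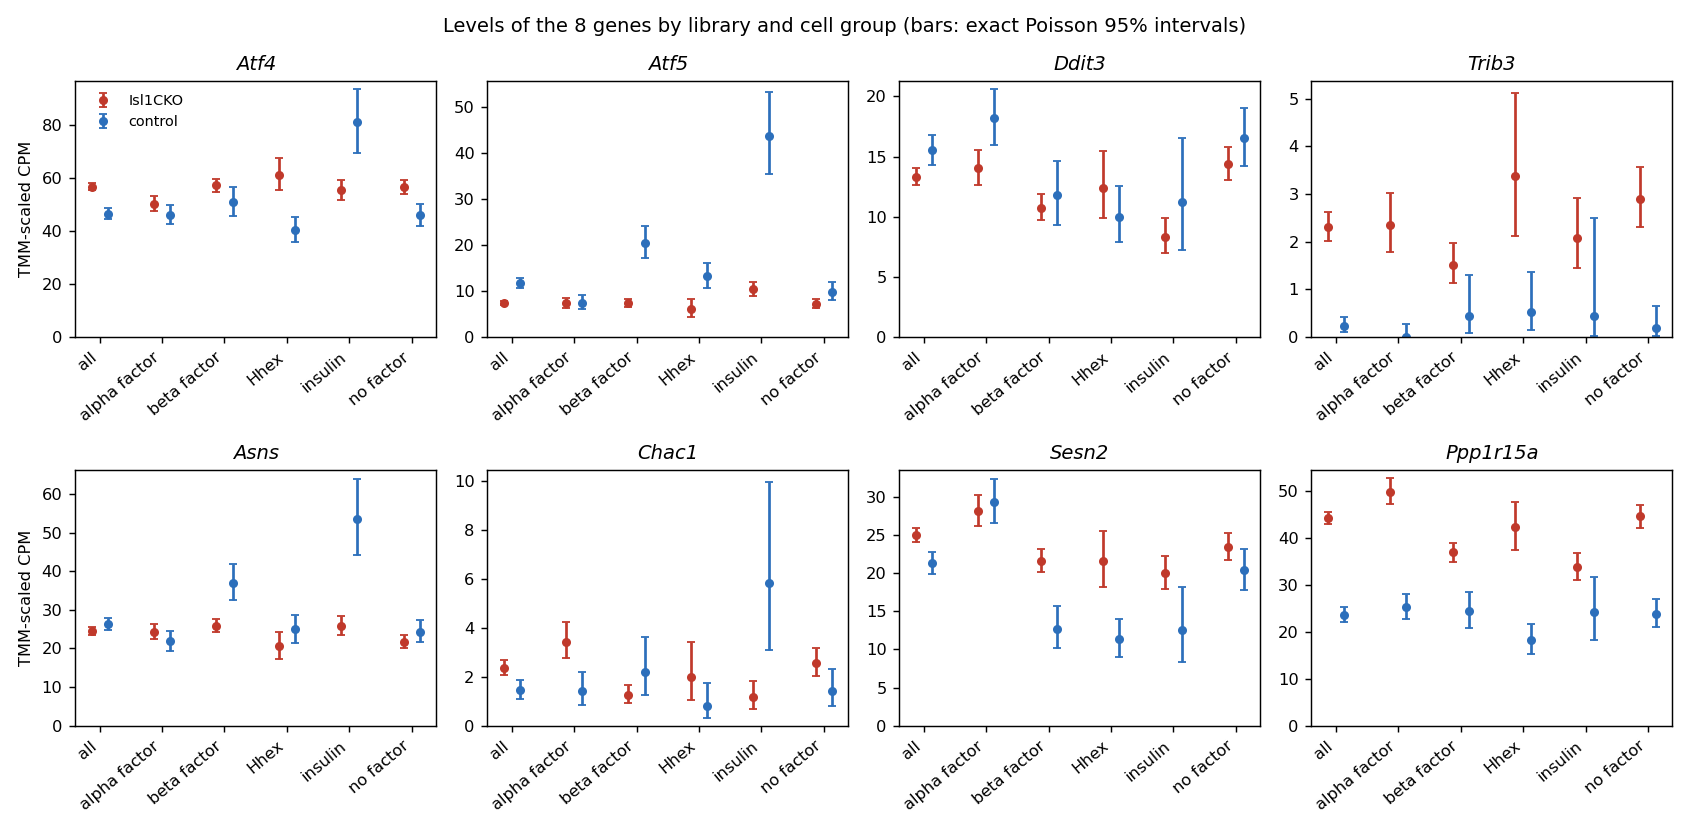
Levels of the 8 genes in TMM-scaled CPM (vertical axis of each panel) by cell group (horizontal axis), with Isl1CKO left of control in each pair and bars for the exact Poisson 95% interval. Ppp1r15a over all endocrine cells stood at 44.2 in Isl1CKO and 23.6 in control. On this scale the control insulin group is the highest for Atf5 at 43.6 and Asns at 53.5, and for Asns that place rests on the scaling.

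The difference in Ppp1r15a was larger in female than in male cells. It had 53.0 CPM in female Isl1CKO and 25.3 in female control cells, a log2 ratio of 1.06 (0.88 to 1.26), and was the 1 member called higher of 6 measured there, beside 9.46% of genes. In male cells it had 27.2 in Isl1CKO and 23.0 in control cells, a log2 ratio of 0.24 (0.07 to 0.42), and 0 of 6 measured members were called, beside 8.88% of genes. The level in female Isl1CKO cells stood apart from the other sets, which lay between 23.0 and 27.2.

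Trib3 and Chac1, at low counts, also had higher ratios in female than in male cells, a difference that was not tested. Trib3 had 200 UMIs in female Isl1CKO and 1 in female control cells, a ratio of 14.7 (5.19 to 1162), and 18 UMIs in male Isl1CKO and 2 in male control cells, a ratio of 4.01 (1.36 to 50.7). A single cell held 6 of those 18 UMIs. Chac1 had 3.08 CPM in female Isl1CKO and 1.39 in female control cells (log2 ratio 1.04, 0.33 to 2.08), and 1.03 in male Isl1CKO and 1.58 in male control cells (-0.61, -1.41 to 0.19). The female interval lies above 0 and the male interval spans it.

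Atf4 had 62.6 CPM in female Isl1CKO and 46.3 in female control cells (log2 ratio 0.43, 0.29 to 0.58), and 44.0 in male Isl1CKO and 47.9 in male control cells (-0.12, -0.25 to 0.01). Atf5 was lower in Isl1CKO in both, at 5.84 in female Isl1CKO and 8.58 in female control cells, and 10.5 in male Isl1CKO and 12.4 in male control cells, with the male interval (-0.49 to 0.02) spanning 0. Sesn2 had the larger difference in male cells, with 29.2 in Isl1CKO and 20.8 in control cells (log2 ratio 0.49, 0.31 to 0.67). Within the control library alone, female over male, 0 of the 6 measured members were called, beside 0.588% of genes. Female and male cells come from different animals of a pool, so sex and animal cannot be told apart.

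Alpha-factor cells, set by at least 2 UMIs of the alpha cell factors Irx1 and Irx2 without the beta or delta factors, numbered 1756 in Isl1CKO and 1226 in control. Only 0.399% of their UMIs in Isl1CKO were from hormone genes, against 39.8% in control. Over both sexes 0 of 6 measured members were called there, beside 13.7% of genes. Ppp1r15a, with 49.8 CPM in Isl1CKO and 25.3 in control (log2 ratio 0.98, 0.81 to 1.15), lay just short of 2-fold, and DESeq2 size factors put it at 1.00 and called it higher. Trib3 had 60 UMIs in Isl1CKO and 0 in control alpha-factor cells. With the control group set at a floor of 3 UMIs the level is 10.6-fold higher, and the exact counting interval of the ratio begins at 8.36-fold.

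In female alpha-factor cells Ppp1r15a had 66.4 CPM in Isl1CKO and 25.0 in control, a log2 ratio of 1.40 (1.11 to 1.72), and was called higher, the only one of 6 measured members, beside 10.5% of genes. In male alpha-factor cells it had 21.6 in Isl1CKO and 26.8 in control, a log2 ratio of -0.31 (-0.64 to 0.02). The female interval for the eIF2 phosphatase subunit thus lay above 0 and the male interval spanned it, and the difference was not tested. Atf4 had 56.9 in female Isl1CKO and 47.8 in female control alpha-factor cells (0.25, 0.02 to 0.49), and 39.4 in male Isl1CKO and 49.6 in male control alpha-factor cells (-0.33, -0.57 to -0.09). Asns had 29.6 in male Isl1CKO and 17.8 in male control alpha-factor cells (0.73, 0.39 to 1.09). In female alpha-factor cells Asns had 21.7 in Isl1CKO and 27.3 in control (-0.34, -0.65 to 0.00). Within Isl1CKO alpha-factor cells, female over male, Ppp1r15a was called higher (log2 1.61) and Atf5 lower (-1.22), 2 of 6 measured members, beside 16.7% of genes. In control alpha-factor cells the same ratio of Ppp1r15a was -0.10, and 0 of 6 were called, beside 1.47% of genes.

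**Figure D2:**
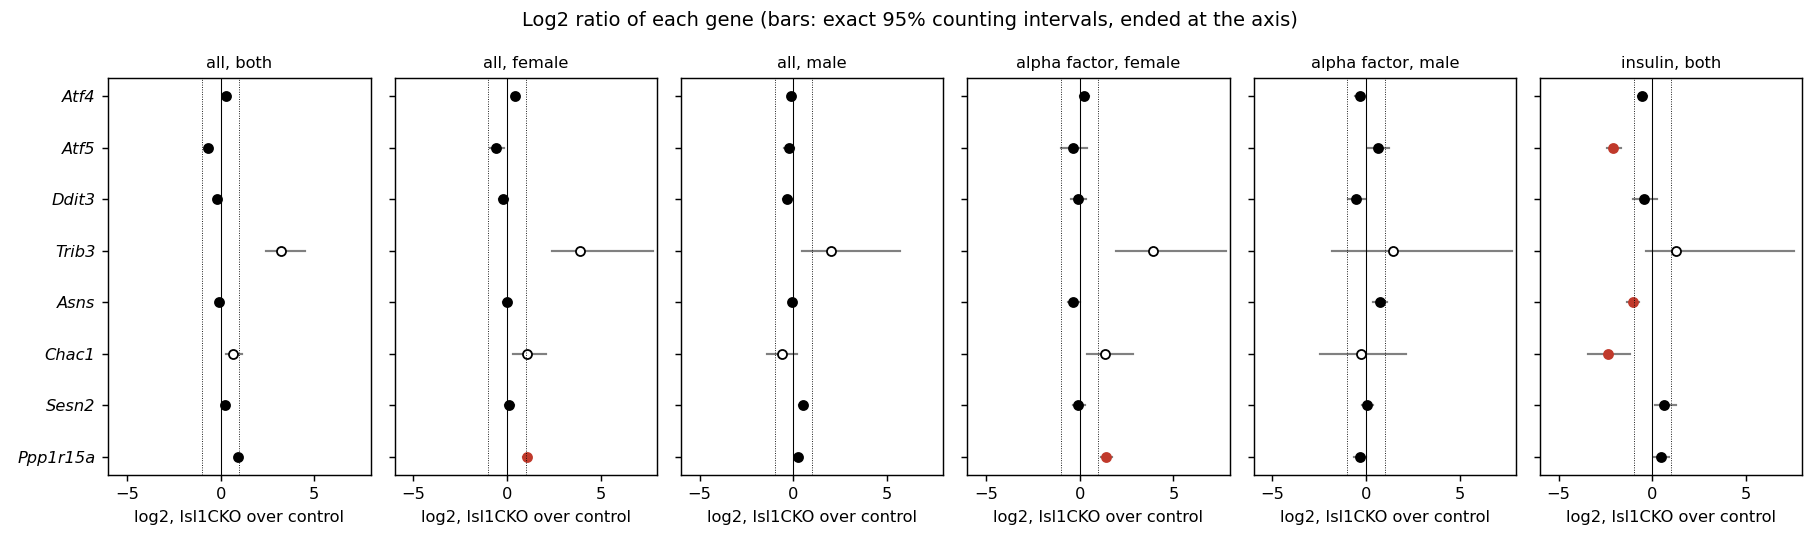
Log2 ratios of Isl1CKO over control (horizontal axes) for each of the 8 genes (vertical axis) by cell group and sex, with bars for the exact 95% counting interval and dotted lines at the 2-fold limits; red points were called, and open points were under 5 CPM in both libraries. Ppp1r15a reads 1.06 in female and 0.24 in male endocrine cells, and Atf5 reads -2.08 in insulin cells.

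The share of cells with a UMI depends on depth, so cells were thinned to 3000 UMIs, which left 7069 Isl1CKO and 3775 control cells and left out 671 and 170. Ppp1r15a then had a UMI in 18.5% of Isl1CKO and 6.75% of control cells (40.6% and 20.1% unthinned), and Atf4 in 22.6% and 13.03% (48.5% and 34.7% unthinned). Asns was found in 10.3% of Isl1CKO and 7.28% of control cells, Ddit3 in 5.66% and 5.22%, and Atf5 in 2.69% and 3.07%. Because hormone UMIs fill so much of a control cell, cells were also thinned to 2000 UMIs of genes other than islet hormones, a choice made after seeing the data. Ppp1r15a then had a UMI in 12.6% of Isl1CKO and 7.43% of control cells, and Atf4 in 16.4% (15.5 to 17.3) of Isl1CKO and 14.0% (12.9 to 15.1) of control cells. The gap in Atf4 was smaller on this scale. Atf5, with 2.03% of Isl1CKO and 3.32% of control cells, Ddit3, with 4.01% and 5.28%, and Asns, with 6.58% and 8.23%, were then more often found in control cells, which for Asns and Ddit3 is the other direction than at 3000 UMIs of all genes. No cell type that lacks these widely expressed genes was at hand to set a background share.

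By sex on the same scale, Ppp1r15a had a UMI in 14.5% of female Isl1CKO and 7.04% of female control cells, and in 7.94% of male Isl1CKO and 7.49% of male control cells. Trib3 was found in 43 of 4893 female Isl1CKO and 0 of 881 female control cells, and in 5 of 1561 male Isl1CKO and 0 of 1602 male control cells, where the exact intervals reach 0.418% of female and 0.230% of male control cells. It was sparse everywhere: in unthinned cells 203 of the 219 Isl1CKO cells with Trib3 held 1 UMI, and so did all 9 control cells with it. Of the 8 members at 3000 UMIs, 0 were found in 45.4% of Isl1CKO and 64.3% of control cells, and 6 or more in 1 cell of each library.

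In insulin cells, with insulin as the only hormone at 1% of UMIs or more, the members that were called over both sexes were all lower in Isl1CKO. Insulin cells numbered 877 in Isl1CKO and 180 in control, with hormone genes at 17.7% and 67.1% of UMIs. Of 7 measured members 3 were called lower and 0 higher, beside 7.36% and 8.95% of genes. Atf5 had 10.4 CPM in Isl1CKO and 43.6 in control insulin cells (169 and 97 UMIs), a log2 ratio of -2.08 (-2.44 to -1.70). Asns had 25.9 in Isl1CKO and 53.5 in control insulin cells, a log2 ratio of -1.05 (-1.34 to -0.74). Chac1 had 1.16 in Isl1CKO and 5.84 in control insulin cells, a log2 ratio of -2.36 (-3.42 to -1.19). It rests on 19 and 13 UMIs. Chac1 passed the 5 CPM rule only through control, where it is high, so the rule itself favoured a call as lower.

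A single control cell held many of these UMIs. It held 9 of the 13 Chac1 UMIs (69.2%) of the control insulin group, 18.3% of its Atf4, 17.5% of its Atf5 and 10.1% of its Asns UMIs. Without it, and without the Isl1CKO cell richest in member UMIs, Atf5 had 10.4 in Isl1CKO and 36.7 in control insulin cells and stayed called (log2 ratio -1.83, -2.22 to -1.42). Asns then had 25.9 in Isl1CKO and 49.1 in control insulin cells (-0.93, -1.23 to -0.60) and was not called, and Chac1 had 19 and 4 UMIs (-0.90, -2.25 to 1.36). The count of members called lower was thus 1 without this cell.

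Atf4 had 55.3 CPM in Isl1CKO and 80.9 in control insulin cells, a log2 ratio of -0.55 (-0.78 to -0.31), or -0.29 without the cell. Opposite to these, Sesn2 had 19.99 in Isl1CKO and 12.6 in control insulin cells (0.62, 0.11 to 1.28), and Ppp1r15a 33.7 and 24.3 (0.45, 0.07 to 0.91). In male insulin cells alone, 261 in Isl1CKO and 96 in control, Atf5 (13.5 and 47.7) and Chac1 (6 and 11 UMIs) were called lower and Sesn2 higher (27.3 and 9.68, log2 ratio 1.40), beside 6.4% and 7.88% of genes. Chac1 again passed the level rule only through control (8.19 CPM, against 1.09 in Isl1CKO). The single control cell is male. It held 9 of the 11 Chac1 UMIs and 17 of the 64 Atf5 UMIs of male control insulin cells, so the male Chac1 call rests mainly on it. Female control insulin cells were under 50 and are not given. Without TMM scaling all log2 ratios in insulin cells shift by 1.15. Atf5 was then at -0.93, and Asns (0.10), Atf4 (0.59) and Ddit3 (0.67) turned positive, so the direction of these members rests on the scaling. Summed acinar markers were 110 in Isl1CKO and 26.5 in control insulin cells, and their part in the result was not tested.

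**Figure D3:**
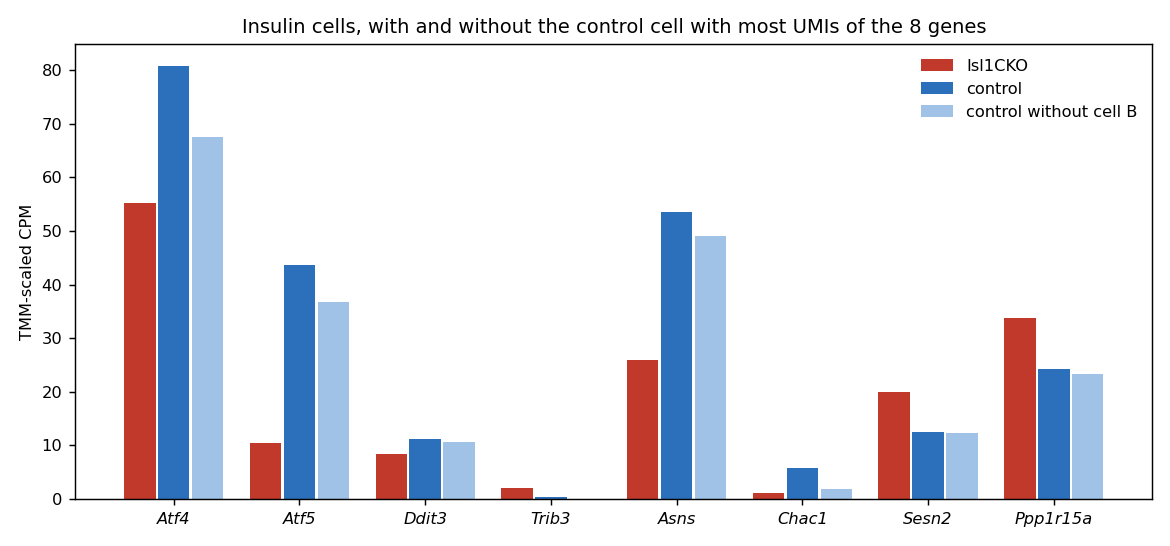
Levels of the 8 genes in insulin cells in TMM-scaled CPM (vertical axis), as bars for Isl1CKO, for control and for control without cell B, its cell richest in UMIs of the 8 genes. The Atf5 level in control insulin cells is 43.6 with that cell and 36.7 without it, against 10.4 in Isl1CKO, while Chac1 in control insulin cells is 5.84 with it and 1.84 without it.

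Within the control library the insulin cells stood apart from the 1563 Gcg cells, those with glucagon as the only hormone, in the same genes. These are the same 180 insulin cells as in the comparison of the libraries, so this is not a separate check. Atf5 had 43.6 CPM in insulin and 7.89 in Gcg cells, a log2 ratio of insulin over Gcg cells of 2.47, or 2.22 without the single cell. Asns had 53.5 in insulin and 21.4 in Gcg cells (1.33, or 1.21 without the cell), and Chac1 5.84 and 1.02 (2.54), which falls to 1.08, below the level rule, without the cell. Sesn2 lay the other way, with 12.6 in insulin and 30.7 in Gcg cells (-1.24, or -1.26 without the cell). With every cell kept, 3 members were called higher and 1 lower in control insulin cells, beside 8.79% and 8.08% of genes. Of these, Chac1 passed the level rule only through insulin cells. In unscaled CPM Atf5 had 26.8 in control insulin and 8.30 in control Gcg cells. Asns had 32.9 and 22.5, short of 2-fold, so its call rests on the scaling. In Isl1CKO, with 877 insulin and 167 Gcg cells, 0 members were called over both sexes, beside 9% and 5.31% of genes. Atf5 there had 10.4 in insulin and 5.02 in Gcg cells (0.95, 0.26 to 1.95), and Asns 25.9 and 24.8 (0.05). In female Isl1CKO cells alone Atf5 was called higher in insulin cells (8.03 in insulin and 2.64 in Gcg cells, 1.36), beside 8.35% of genes. It passed the level rule there only through insulin cells. On the TMM scale the Atf5 and Asns ratios of the control library lie outside the Isl1CKO counting intervals, and a difference between the libraries was not tested.

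Across the 9 hormone groups of at least 50 cells, the order of levels differed from gene to gene. On the TMM scale Atf4, Atf5 and Asns were highest in control insulin cells, each beyond counting error of the next group. Without cell B, the control insulin cell richest in member UMIs, Atf5 (36.7) and Asns (49.1) stayed so, while Atf4 was at 67.5 with a log2 ratio over the next group of 0.26 (0.00 to 0.48). In unscaled CPM Atf5 was still highest in control insulin cells, at 26.8. Atf4 was then at 49.7 there, against 84.8 in Isl1CKO cells with no hormone. Asns was at 32.9, against 56.0 in control cells with no hormone (28 UMIs), so the place of Atf4 and Asns rests on the scaling. On the TMM scale Atf4 was lowest in control Sst cells, those with somatostatin only, at 30.9 CPM. Neighbours in the middle of the Atf4 order, from 56.8 in Isl1CKO cells with no hormone down to 43.8 in Isl1CKO Gcg cells, did not differ beyond counting error. Ppp1r15a was highest in Isl1CKO Gcg cells (49.9) and Isl1CKO cells with no hormone (45.6), which could not be told apart, then in control Ppy cells (34.9), with pancreatic polypeptide only, and Isl1CKO insulin cells (33.7). It was lowest in control Sst cells (15.4). Sesn2 was highest in control Gcg cells (30.7), beyond counting error of the next, and lowest in control Ppy cells (11.2). Ddit3 was highest in control Ppy (18.0) and Gcg cells (17.4) and lowest in Isl1CKO insulin cells (8.34). Trib3 was highest in Isl1CKO Gcg cells (4.66, from 13 UMIs), and control Sst cells held 0 UMIs of it.

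Among groups set by transcription factors, Atf5 was called lower in beta-factor and Hhex cells but not in alpha-factor cells. There it had 7.34 CPM in Isl1CKO and 7.44 in control cells (-0.03, -0.38 to 0.34), and in male alpha-factor cells 11.8 in Isl1CKO and 7.40 in control (0.65, 0.12 to 1.24). In beta-factor cells, with at least 2 UMIs of Pdx1 and Nkx6-1, it had 7.41 CPM in 2233 Isl1CKO and 20.3 in 589 control cells, a log2 ratio of -1.46 (-1.76 to -1.15), the 1 member of 6 called lower, beside 6.06% of genes. Without the single cell it was at -1.28 and still called. In male beta-factor cells it was called at -1.35 (10.1 in Isl1CKO and 25.7 in control), and at -1.07 without the cell, and Sesn2 was called higher there (27.6 and 10.2, log2 ratio 1.40), beside 5.17% of genes called lower and 6.23% higher. In female beta-factor cells, of which control had 104, Atf5 rested on 107 and 7 UMIs and its interval (-1.16 to 1.28) spanned 0. Cells with both alpha and beta factors also had less Atf5 in Isl1CKO. There it had 6.37 in 390 Isl1CKO and 13.7 in 74 control cells (45 and 15 UMIs).

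In Hhex cells, those with the delta cell factor Hhex, Atf5 had 5.98 in 416 Isl1CKO and 13.2 in 704 control cells and was called lower (-1.12, -1.71 to -0.59), beside 11.8% of genes. Ppp1r15a had 42.2 in Isl1CKO and 18.3 in control Hhex cells and was called higher (1.20, 0.91 to 1.51), beside 9.02% of genes. Atf4 had 61.1 and 40.4 (0.60, 0.38 to 0.82) and Sesn2 21.6 and 11.3 (0.93, 0.53 to 1.34), both short of 2-fold. Ppp1r15a was also called higher in Gcg cells, with 49.9 in Isl1CKO and 23.2 in control (1.11, 0.81 to 1.39), beside 9.75% of genes. Trib3 had 13 UMIs in the 167 Isl1CKO and 1 in the 1563 control Gcg cells. In female Gcg cells, 117 in Isl1CKO and 476 in control, 2 of 7 measured members were called higher and 1 lower, beside 10.8% and 13% of genes. Those were Ppp1r15a (61.8 in Isl1CKO and 25.5 in control, 1.28), Trib3 (11 and 0 UMIs) and, lower, Atf5 (5 and 40 UMIs, -1.41). Trib3 passed the level rule only through Isl1CKO (5.81 CPM) and Atf5 only through control (8.21), so the rule itself favoured these calls.

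Upstream of ATF4, the kinases of eIF2 were not called, while 12.6% of genes were. All 4 were measured, with a median log2 ratio of 0.38, and the largest was Eif2ak3 (PERK, the kinase of the endoplasmic reticulum) at 16.3 CPM in Isl1CKO and 9.37 in control endocrine cells (0.80). Of 12 measured genes of eIF2, its exchange factor eIF2B and its phosphatases, 1 was called higher, beside 6.49% of genes. It was the X-linked Eif2s3x (18.8 and 9.37, 1.00), which was not called within female (0.95) or male (0.40) cells. Of 3 measured partners of ATF4, Cebpb was called higher, beside the same share. Cebpb, whose product pairs with ATF4 and CHOP, had 63.8 in Isl1CKO and 17.3 in control cells (1.88). It had 81.0 and 16.2 in female cells (2.31) and 29.9 and 17.3 in male cells (0.79). Atf3, a partner induced under stress, had 51 UMIs in Isl1CKO and 6 in control cells, at 0.49 and 0.15 CPM. A single Isl1CKO cell, cell A described further on, held 39 of the 51, and without it and the control cell richest in member UMIs Atf3 stood at 0.12 in Isl1CKO and 0.15 in control cells (log2 ratio -0.49, -1.91 to 1.32).

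Downstream, the arms of the response differed in direction. Of 8 measured genes of amino acid synthesis, 2 were called lower and 0 higher, with a median of -0.80, beside 6.14% of genes called lower and a median of 0.05. Cbs, the first enzyme from homocysteine towards cysteine, had 2.16 in Isl1CKO and 11.2 in control cells (-2.37), and Pycr1, which completes proline synthesis, 4.08 and 8.77 (-1.11). Both passed the level rule only through control, so the rule itself favoured calls as lower. In female cells 5 of 9 measured were called lower and 1 higher, beside 9.86% and 9.46% of genes, and in male cells 1 of 8 lower, beside 4.51%. In insulin cells Cbs had 0.67 in Isl1CKO and 19.8 in control (-4.78), again passing the level rule only through control. Of 6 measured amino acid transporters, Slc1a5 was called higher (7.25 and 2.51, 1.52), beside 6.49% of genes. It passed the level rule only through Isl1CKO, which favoured a call as higher. Slc3a2, the heavy chain of the leucine and cystine exchangers, was called lower (47.8 and 100.1, -1.07), beside 6.14%. The other chain of the cystine exchanger, Slc7a11, was near 0, at 0.00 in Isl1CKO and 0.08 in control cells. Of 21 measured tRNA synthetases, many of them known ATF4 targets, 0 were called, beside 12.6% of genes, with a median of -0.20. In female cells 2 were called lower, beside 9.86% of genes.

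The other ATF4 targets are genes that other factors also drive. Of 14 measured, 5 were called higher and 0 lower, beside 6.49% and 6.14% of genes, with a median of 0.74. Ddit4, which encodes the mTORC1 inhibitor REDD1, had 123 CPM in Isl1CKO and 12.0 in control cells (3.36). It had 178 and 12.0 in female cells (3.88) and 19.1 and 12.2 in male cells (0.65). Cdkn1a, the cell cycle inhibitor p21, had 169 in Isl1CKO and 19.997 in control cells (3.08) and was high in both sexes (3.21 in female and 2.63 in male cells). Herpud1, which acts in degradation of endoplasmic reticulum proteins, had 395 and 120 (1.72), with 527 and 96.4 in female cells but 132 and 119 in male cells. In female cells 7 of 14 measured genes of this list were called higher, beside 9.46% of genes, and in male cells 1 of 14, beside 4.37%.

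Chaperones and enzymes of the IRE1 and ATF6 arms of the unfolded protein response did not follow over all cells. There 0 of 19 measured genes were called, beside 12.6% of all genes, and the median was 0.10. In male alpha-factor cells 11 of 19 were called higher and 0 lower, with a median of 1.25, beside 5.86% of genes. Hspa5, the chaperone BiP, had 1425 CPM in male Isl1CKO and 511 in male control alpha-factor cells (1.48), and Pdia6, a disulfide isomerase, 775 and 224 (1.79). In female alpha-factor cells 2 of 18 were called higher, beside 10.5% of genes, and 1 lower. In insulin cells 2 of 20 were called lower, beside 7.36% of genes, so both counts of 2 lay near the share of all genes. Among the latter was Sdf2l1, a chaperone cofactor (47.2 in Isl1CKO and 207 in control, -2.13). Among the members, Ppp1r15a, Atf4 and Ddit3 had log2 ratios below 0 in male alpha-factor cells (-0.31, -0.33 and -0.52), that of Ppp1r15a with an interval spanning 0, while Asns (0.73) and Atf5 (0.65) lay above 0 and Sesn2 was at 0.05.

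Early response genes, transcription factors and feedback genes induced within minutes of a stimulus, were called higher mainly in female cells, where Ppp1r15a was called too. Over all cells 6 of 12 measured were called higher and 1 lower, beside 6.49% and 6.14% of genes, with a median of 1.04. In female cells 9 of 13 were called higher and 1 lower, beside 9.46% and 9.86% of genes, and in male cells 0 of 11 higher and 2 lower, beside 4.37% and 4.51%. Egr1 had 256 CPM in female Isl1CKO and 16.9 in female control cells (3.91), and 31.5 in male Isl1CKO and 24.6 in male control cells (0.35). Jun lay the other way, at 31.9 in Isl1CKO and 96.1 in control cells (-1.59). Within Isl1CKO, female over male, 8 of 13 early response genes were called higher, beside 4.95% of genes, and in control 0. Of heat shock genes 6 were measured, and 2 were called lower (Hspb1 at -1.48 and Hsph1 at -1.07), beside 6.14% of genes. Of 6 mitochondrial stress genes 0 were called, beside 12.6%. The part of dissociation or handling in these values was not tested.

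**Figure D4:**
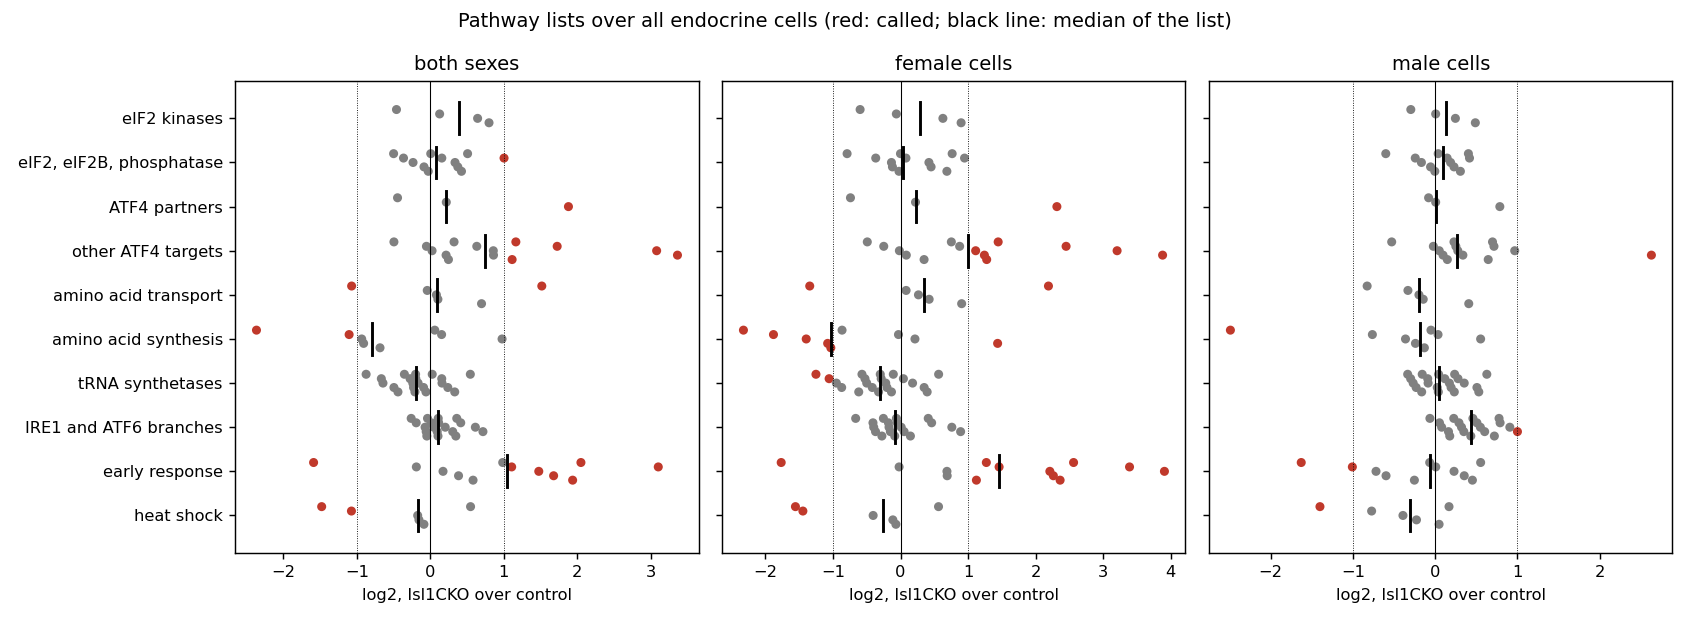
Log2 ratios of Isl1CKO over control (horizontal axes) for the measured genes of each pathway list (vertical axis) over all endocrine cells of both sexes and by sex, with called genes in red and the median of each list as a black line. The early response list has a median of 1.04 over both sexes, and the tRNA synthetases one of -0.20.

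A few single cells expressed many members at once, and they were picked out after their values were seen. Among the 7069 Isl1CKO and 3775 control cells with at least 3000 UMIs, member UMIs had a median of 234 and 127 CPM of the cell's own UMIs and a 99th percentile of 914 and 615. The highest, a male Isl1CKO cell with no hormone and no lineage factor (cell A), had 61 member UMIs among 12738, or 4789 CPM: 24 of Ddit3, 17 of Ppp1r15a, 10 of Atf4, 6 of Trib3, 3 of Atf5 and 1 of Asns. Its 39 UMIs of Atf3, 311 of Hspa5 (18.3 at its group's mean) and 638 over the 20 genes of the IRE1 and ATF6 list (102 at the mean) were high as well. It had 3 UMIs of Chga, against 951 at the mean of its group, and 96 of tdTomato, so Chga stood far below its group in a cell with reporter UMIs.

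The highest control cell (cell B), the insulin cell named above, was male, with 17695 UMIs and 78 member UMIs, or 4408 CPM: 33 of Atf4, 17 of Atf5, 12 of Asns, 9 of Chac1, 3 of Ppp1r15a, 2 of Ddit3 and 1 each of Trib3 and Sesn2. Unlike cell A it had no excess over the IRE1 and ATF6 list, with 54 UMIs against 85.7 at its group's mean. It held 13 UMIs of Mthfd2, a mitochondrial folate enzyme (0.23 at the mean), 15 of Bbc3, a cell death gene (0.07), and 274 of early response genes (4.45), 80 of them Jun. Mitochondrial genes gave 0.0904% of its UMIs, insulin 3.10%, and Chga 10 UMIs against 277 at the mean. A further Isl1CKO cell (cell C) had 21 member UMIs among 6693, or 3138 CPM, spread over 7 members, with 120 UMIs of the IRE1 and ATF6 list against 53.8 at the mean. The next cell had 7 member UMIs, or 2052 CPM. Cells A and B thus shared 6 members but in different proportions: Ddit3 and Ppp1r15a led in A, and Atf4, Atf5, Asns and Chac1 in B.

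**Figure D5:**
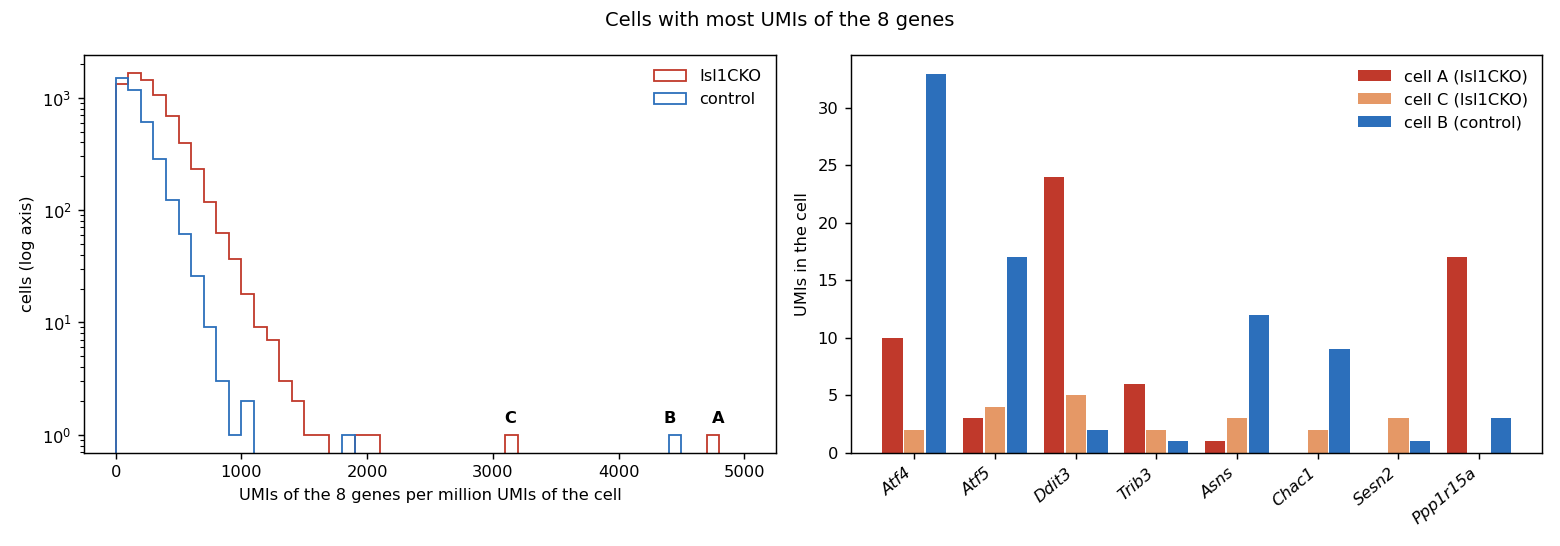
Left, number of cells (log axis) by CPM of the 8 genes in the cell's own UMIs for Isl1CKO and control; right, UMIs of each gene (vertical axis) in the cells richest in them. Cell A of Isl1CKO lies at 4789 and cell B of control at 4408 CPM, while the 99th percentiles are 914 and 615. The cell's own UMIs include hormone UMIs, so the libraries are not on a like scale.

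Across 20 sets of cells (library, hormone group and sex, with cells of no hormone split by lineage factor, at least 50 cells each), members were only loosely alike. These sets share libraries and depth, so the correlations of log2 levels are a description. Trib3 and Ppp1r15a were the pair most alike (r = 0.78), followed by Atf5 and Asns (0.74) and by Atf4 and Chac1 (0.69), and the least alike were Asns and Sesn2 (-0.41). The pair values include cells A and B. With the mean of the other members, Chac1 had r = 0.75 and Atf4 0.69, or 0.68 and 0.63 without cells A and B, while Sesn2 had -0.12, or -0.02. Leaving out these cells, Atf5 went from 0.06 to -0.20 and Asns from 0.11 to -0.12. Ddit3 (0.16 to 0.22), Trib3 (0.27 to 0.30) and Ppp1r15a (0.34 to 0.52) rose. The 10 other genes most like the mean of the members were Rab10os (r = 0.89), Gm11974, Prr3, Srebf1, Ccnl2, Crls1, Akr1c13, Prpf39, Stx5a and Slmap (0.75), with 0.25 to 0.84 over the 12 Isl1CKO sets alone and 0.78 to 0.94 over the 8 control sets. Without cells A and B 4 of these 10 remained among the 10 most alike, so the list rests in part on 2 cells.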

How the data were processed

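The authors deposited, per library, a matrix of whole-number UMI counts for 46984 features in 6794880 barcodes, unfiltered. STARsolo (STAR 2.7.3a), Seurat 4.3.0.1 and GRCm38.p6 were used, per the submitters' processing notes. The libraries held 86086781 (Isl1CKO) and 48685758 (control) UMIs, and depth limits precision to the counting intervals given.

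Barcodes were kept with 1000 UMIs and 500 genes or more and mitochondrial UMIs up to 15%, which left 8231 Isl1CKO and 4219 control cells. Scrublet in scanpy 1.11.5 (expected rate 0.05) marked 0 Isl1CKO cells by its automatic threshold, so the control threshold of 0.185 was used in both and removed 360 and 249. Cells with 0.5% or more acinar, immune, stromal, endothelial or Schwann marker UMIs were left out (131 and 25). Groups were set by hormones at 1% of UMIs or by lineage factor UMIs, and those under 50 cells are not given. UMIs were summed per group, scaled by TMM (edgeR 4.0.16, R 4.3.3) with 1 added to each count, and given exact conditional Poisson intervals. Shares have exact Clopper-Pearson intervals, and PCR duplicates are removed by the UMIs. The code was tested on simulated data.

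The genes named are all members, of each pathway list the 3 highest and 3 lowest measured ratios over all endocrine cells and those called in all 3 main groups (all endocrine, alpha-factor and insulin cells), and the 10 genes most like the members. Others (Atf3, Slc7a11, Eif2s3x, and the genes of single cells) were chosen after their values were seen. The alpha-factor rule was changed after the data were seen, since 1 gene of the rule first written is not reported here, and this moved cells between the lineage factor groups. Members and lists were chosen with earlier results of these data known. Gene IDs matched the annotation without version for all 8 members, 5 of them with version.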

Additional observations from a re-analysis of the deposited data

Results flagged for a closer look

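Opposite signs of the log2 ratio of Isl1CKO over control drew attention in 2 pairs of cell groups, and neither difference was tested, since there is 1 library per genotype. In alpha-factor cells, female and male cells differed in sign for Atf4 (0.25 in female and -0.33 in male cells), with both intervals leaving out 0. Ppp1r15a (1.40 in female and -0.31 in male cells), Asns (-0.34 and 0.73) and Atf5 (-0.36 and 0.65) differed in sign too. Each of these had an interval spanning 0 in female or male cells. Between alpha-factor and insulin cells of both sexes the sign differed for Chac1 (1.24 in alpha-factor and -2.36 in insulin cells), which was under 5 CPM in alpha-factor cells of both libraries. It differed as well for Asns (0.15 and -1.05), Atf4 (0.12 and -0.55) and Sesn2 (-0.06 and 0.62), with alpha-factor intervals spanning 0. The Chac1 value in insulin cells moved to -0.90 without cell B.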

How the results depend on the processing

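Counts of members called higher or lower were recomputed under each alternative. Of these, 60 stayed within 1.5 times and 18 did not. Apart from the sexes, the share of all genes called under each alternative is not given here. The counts below therefore describe the members alone and cannot be set against all genes. Over all endocrine cells, where 0 were called, 1 was called higher with unscaled CPM, with no filter on low values, with a fold of 1.5 and in female cells alone, and 1 lower with a fold of 1.5. In alpha-factor cells, also at 0, 1 (Ppp1r15a, at 0.98 by TMM) was called higher with unscaled CPM, with DESeq2 size factors, with 1 lineage factor UMI, with the mean over cells of each share, with a fold of 1.5 and in female cells, and 2 with no filter. In insulin cells, with 3 called lower and 0 higher, unscaled CPM gave 0 lower and 2 higher, a hormone limit of 5% gave 1 lower, leaving out the cell with most member UMIs in each library (added after seeing the data) 1 lower, and a fold of 1.5 and male cells alone 1 higher each. A single called ratio reversed, Asns in insulin cells, at 0.10 with unscaled CPM. Unscaled CPM shifts all log2 ratios by 0.54, 0.41 and 1.15 in endocrine, alpha-factor and insulin cells, totals without hormone genes by -0.20, -0.32 and -0.18, and size factors of DESeq2 1.42.0 by at most 0.03. For the other moved values the cause was not tested. Keeping the cells left out for other-cell markers was added after seeing the data too. A hormone limit applies to insulin cells and a limit of 1 lineage factor UMI to alpha-factor cells, so each was run there alone, and insulin cells of female mice were too few in control. No paired analysis was possible because the libraries share only 1 replicate number. Leaving out a replicate was not possible with 1 library per genotype. Depth limits Trib3 and Chac1, which hold 9 and 58 UMIs in control.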
